A study of Mus musculus with 4 samples.

Results

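The natural killer gene complex of the mouse is a stretch of chromosome 6 that holds most of the C-type lectin-like receptor genes of natural killer (NK) cells. It was taken here as the 1.9 Mb of chromosome 6 that begin at base 128500001 of mm10, and its members are the 1269 windows of 100 bp that the deposited table lists there, out of 1048575 listed windows in all. The segment was chosen by position and not by its reads. The gene table (RefSeq, GRCm38.p6) has 82 genes on it. They were sorted by symbol into 5 families of lectin-like genes, other protein-coding genes, and predicted or RNA genes, and windows in no gene locus were called intergenic. A locus here spans a gene and the 1000 bp on either side of it.

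The windows come from MeDIP-seq, which sequences the DNA fragments that an antibody to 5-methylcytosine binds, next to a library of the same DNA made without that step (input). The cells were NKT thymocytes, lymphocytes that share receptors with NK cells and see lipids on CD1d, taken from thymus by a CD1 tetramer sort. Reads of DNA methylation do not measure which cells the sort held. There were 4 groups with 1 library each: wild-type (WT) C57BL/6 mice, MeDIP and input, and PLZFon mice on the C57BL/6 strain, MeDIP and input. PLZF is a zinc finger factor on which the NKT lineage depends. What the PLZFon allele is, how many animals were used and their age are not given in the sources used here. The antibody field names the 5-methylcytosine antibody for both WT libraries and none for both PLZFon libraries, against the titles, which were used for the groups. With 1 library a group nothing was tested, and each difference is between 2 libraries. The libraries held 10633609 (PLZFon MeDIP), 15141449 (WT MeDIP), 50374582 (PLZFon input) and 60683037 (WT input) reads. All intervals are exact (Clopper-Pearson) binomial intervals at 95% and cover counting error only.

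The complex encodes receptors and, in places, their ligands side by side. The Klrb1 genes encode NKR-P1 receptors, among them NK1.1 (Klrb1c), and several of these bind Clr proteins encoded by the interleaved Clec2 genes. Further along lie lectins of myeloid cells, then CD94 (Klrd1) and its NKG2 partners (the Klrc genes) with NKG2D (Klrk1), and last the Klra genes, which encode the Ly49 receptors for class I MHC molecules. Many of these receptors are switched on in part of the cells only, and DNA methylation at their promoters has been linked to that choice in NK cells.

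The promoters, taken as the 250 bases before a gene's start and the 50 after it, held few CpG, where mammalian DNA carries most of its methyl groups, and few of them were listed. The RefSeq table (GRCm38.p6) has 59 promoters of 49 genes that start on the segment. They held a median of 3 CpG, from 0 to 23, against a median of 7 over the 15044 promoters in the range of the deposited table. Every listed window has a CpG factor, the table's score of CpG content, of at least 1 and at least 10 MeDIP reads over both libraries. Of the 49 genes, 6 (12.2%) had a listed window in a promoter, against 17.3% of 12343 genes in the range of the table. In the lectin families this held for 4 of 34 genes with a promoter: 2 of 6 of the Clec2 family, 2 of 6 of the myeloid lectins, 0 of 5 of the Klrb1 family, 0 of 7 of the CD94/NKG2 group and 0 of 10 of the Klra family. Among promoters with at most 8 CpG, 6 of 57 on the segment (10.5%) had a listed window, against 22.4% of 8245 in range. Above 8 CpG it was 0 of 2, against 7.53% of 6799.

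The upstream 250 bases of 3 promoters that had listed windows are printed first. CG dinucleotides stand in capitals. Clec2g (chr6:128934131-128934380, plus strand) encodes a Clr protein, Clec12b (chr6:129385504-129385753, minus strand) an inhibitory myeloid lectin, and Olr1 (chr6:129507166-129507415, minus strand) a receptor for oxidised LDL.
Clec2g: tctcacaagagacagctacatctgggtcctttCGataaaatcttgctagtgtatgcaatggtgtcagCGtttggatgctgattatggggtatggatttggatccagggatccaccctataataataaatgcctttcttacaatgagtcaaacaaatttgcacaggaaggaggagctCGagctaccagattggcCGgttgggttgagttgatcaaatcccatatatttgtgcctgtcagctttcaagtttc
Clec12b: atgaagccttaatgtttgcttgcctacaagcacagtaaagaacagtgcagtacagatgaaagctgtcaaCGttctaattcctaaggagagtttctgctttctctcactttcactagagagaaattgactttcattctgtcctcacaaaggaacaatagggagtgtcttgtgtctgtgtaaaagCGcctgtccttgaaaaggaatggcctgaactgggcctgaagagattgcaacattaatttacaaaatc
Olr1: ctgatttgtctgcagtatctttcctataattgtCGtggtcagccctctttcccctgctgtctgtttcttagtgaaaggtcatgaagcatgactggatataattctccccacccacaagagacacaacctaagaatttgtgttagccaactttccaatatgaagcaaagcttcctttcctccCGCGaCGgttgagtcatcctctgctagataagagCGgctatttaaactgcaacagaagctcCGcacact
The 3 windows at Olr1 held 4 to 5 PLZFon and 8 to 9 WT MeDIP reads each. The 2 windows at Clec2g held 8 to 10 PLZFon and 12 to 14 WT reads, and the 3 windows at Clec12b held 2 to 4 PLZFon and 11 to 12 WT reads. Their input windows held 11 to 13 (PLZFon) and 10 to 13 (WT) reads at Olr1, 6 to 8 and 12 to 16 at Clec2g, and 5 to 9 and 12 to 13 at Clec12b. Adjacent windows share reads, so each promoter is close to a single observation of few reads.

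Next are 4 promoters with no listed window: those of the receptor genes Klrb1b (chr6:128826309-128826558, minus strand), Klrk1 (chr6:129623865-129624114, minus strand) and Klra8 (chr6:130129836-130130085, minus strand), and that of Gabarapl1 (chr6:129532942-129533191, plus strand), an autophagy gene and the contrast in CpG content.
Klrb1b: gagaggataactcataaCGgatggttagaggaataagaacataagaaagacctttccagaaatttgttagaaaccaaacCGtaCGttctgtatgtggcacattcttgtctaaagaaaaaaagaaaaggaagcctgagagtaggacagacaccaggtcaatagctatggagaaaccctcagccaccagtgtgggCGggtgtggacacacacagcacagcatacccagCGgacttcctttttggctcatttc
Klrk1: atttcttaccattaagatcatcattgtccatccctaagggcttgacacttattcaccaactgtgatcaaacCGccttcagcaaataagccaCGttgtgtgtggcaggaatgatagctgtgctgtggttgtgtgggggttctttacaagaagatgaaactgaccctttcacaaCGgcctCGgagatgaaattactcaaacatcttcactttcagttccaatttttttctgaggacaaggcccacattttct
Klra8: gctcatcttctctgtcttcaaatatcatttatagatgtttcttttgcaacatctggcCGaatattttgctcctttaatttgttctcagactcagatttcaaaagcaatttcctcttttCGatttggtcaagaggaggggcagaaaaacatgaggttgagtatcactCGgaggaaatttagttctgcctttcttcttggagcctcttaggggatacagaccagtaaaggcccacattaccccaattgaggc
Gabarapl1: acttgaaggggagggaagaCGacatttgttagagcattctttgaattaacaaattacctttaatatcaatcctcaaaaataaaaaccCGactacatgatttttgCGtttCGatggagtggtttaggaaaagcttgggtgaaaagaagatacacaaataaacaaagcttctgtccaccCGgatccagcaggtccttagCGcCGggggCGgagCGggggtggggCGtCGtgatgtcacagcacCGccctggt
Gabarapl1 had 12 CG in its promoter of 300 bases, and the RNA gene 1700101I11Rik, which starts beside it, had 23, the most on the segment. Neither was listed. Klrb1b had 7, Klrk1 4 and Klra8 4. A window can be unlisted for a low CpG factor or for few MeDIP reads, and few reads from low methylation and few reads that could be placed uniquely cannot be told apart here.

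Over all promoters in the range of the table, listing rose and then fell with the CpG number of the window. It was 0.154% of windows with no CG (10 of 6493), 14.1% with 1 CG, 19.9% with 2, 23.5% with 3, 10.7% with 5, 1.81% with 8 and 0.278% with 12 or more. On the segment, 4 of 36 promoter windows with 1 CG, 2 of 24 with 2 and 2 of 5 with 3 were listed, which is 11.1% (interval 3.11 to 26.1), 8.33% (1.03 to 27) and 40% (5.27 to 85.3). The same letters gave the meaning of the CpG factor. It equalled the CG count of the window in 2485 of 2546 listed windows wholly inside a promoter (97.6%) and was 1 higher in the other 61.

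Promoters were also searched for TGTGGT and ACCACA, the core of the RUNX site read on both strands, since RUNX factors act in NK receptor genes. It was found in 15 of 59 promoters of the segment (25.4%) and in 16.3% of all promoters in range. By family it was in 5 of 7 genes of the CD94/NKG2 group (among them Klrk1, Klrc1 and Klrc2), 2 of 5 Klrb1 genes (Klrb1a and Klrb1c), 1 of 10 Klra genes (Klra1), 1 of 6 myeloid lectins (Clec12a) and 0 of 6 of the Clec2 family. A match describes these letters only. Some promoters shared long stretches: the longest run of identical bases was 150 between Klrc2 and Klrc3, 121 between Clec2e and Clec2h, 75 between Klra3 and Klra9 and 41 between Klrb1a and Klrb1c.

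The listed windows were not spread evenly over the segment. The first 600 kb, with the Klrb1 and most Clec2 genes, had 793 of 6000 windows listed (13.2%, interval 12.4 to 14.1). The next 700 kb, with Cd69, the myeloid lectins and the CD94/NKG2 group, had 150 of 7000 (2.14%, 1.82 to 2.51). The 200 kb around Klra17 and Klra5 had 277 of 2000 (13.8%, 12.4 to 15.4), and the last 400 kb, with the other Klra genes, 49 of 4000 (1.23%, 0.908 to 1.62). These bounds were set after the windows had been seen, and since neighbouring windows share reads the intervals are too narrow. The whole complex had 6.68% listed, against 8.88% for the rest of chromosome 6, 7.52% for the span of the lymphocyte GTPase genes Gimap and 4.82% for the spans of the vomeronasal receptor genes Vmn1r on the same chromosome.

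**Figure D1:**
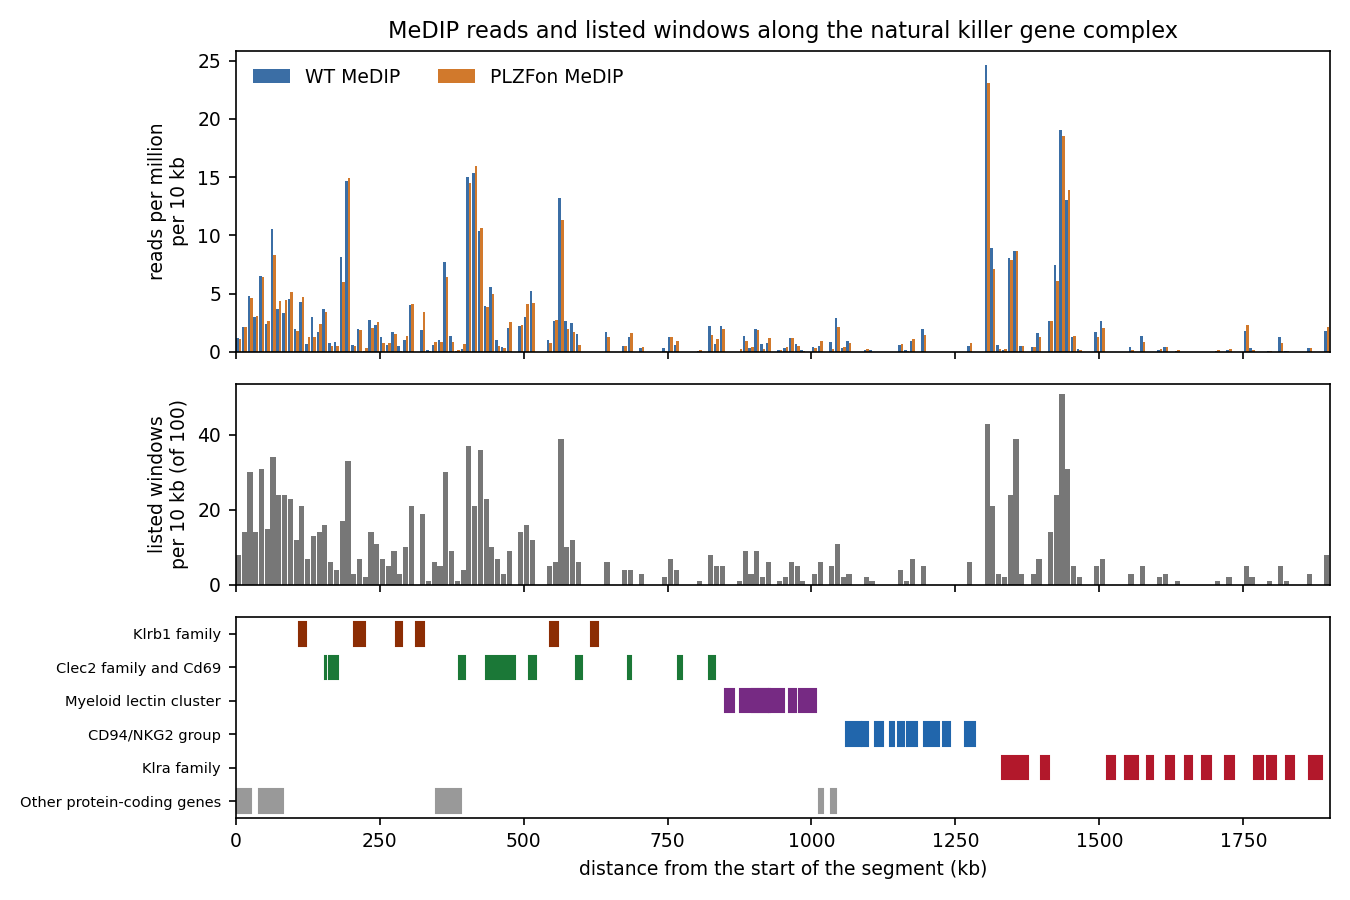
Depth-scaled MeDIP reads (RPM, upper panel) and the number of listed windows (middle panel) in bins of 10 kb along the segment, with the genes of the 5 families and the other protein-coding genes as bars (lower panel). WT (blue) and PLZFon (orange) bars rise at the same places, and the stretches from 600 to 1300 kb and from 1500 to 1900 kb hold few windows.

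By family, listing was lowest over the CD94/NKG2 group. It was 1.59% (interval 1.03 to 2.33) there, 3.03% (2.4 to 3.77) over the Klra family, 3.15% (2.3 to 4.21) over the myeloid lectins, 6.75% (5.22 to 8.55) over the Klrb1 family and 7.8% (6.46 to 9.33) over the Clec2 family with Cd69. The other protein-coding genes, such as the protease inhibitor genes Pzp and A2ml1, stood at 16.6% (14.7 to 18.7) and the intergenic windows at 7.81% (7.24 to 8.42). Klra17 held 68 of the 78 listed windows of the Klra family. Without it the other 12 Klra genes had 10 of 2097 windows listed, 0.477% (0.229 to 0.875). These 10 held 8.5 WT input reads per window on average, against 10.7 over all gene loci and 12 over the complex. Reads in near-identical copies can be lost where alignments are filtered for uniqueness, and the part of that in these shares was not tested.

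**Figure D2:**
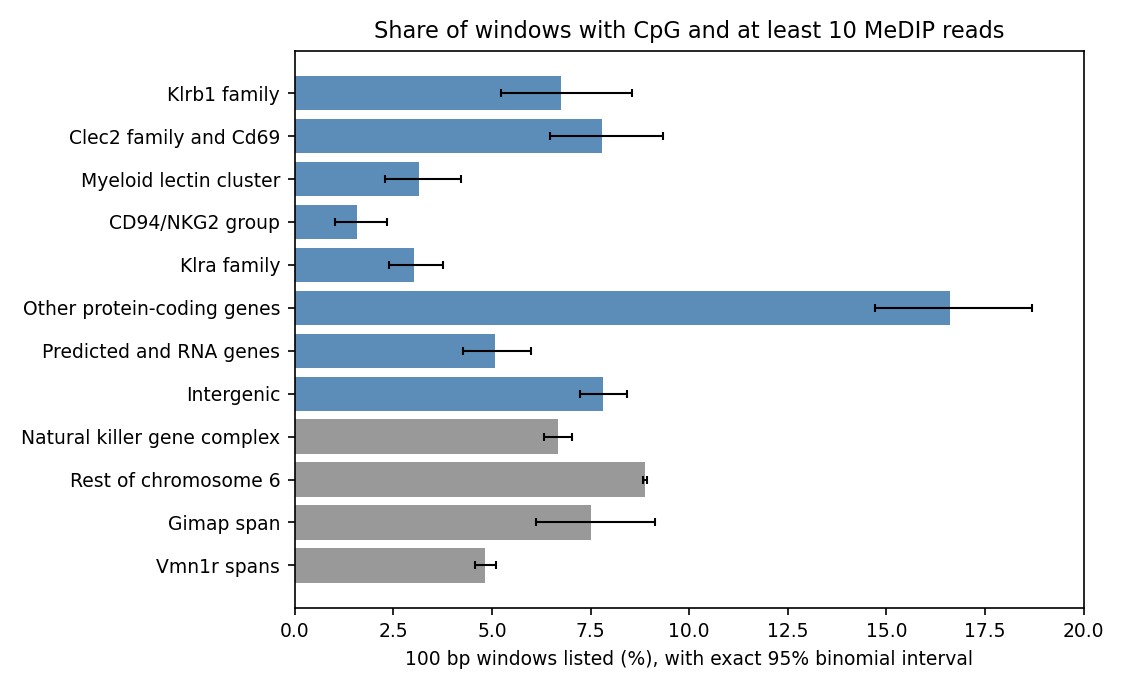
Percent of the 100 bp windows of each gene family, of the intergenic part and of the comparison spans that are listed, with exact 95% binomial intervals as error bars. The CD94/NKG2 group stands lowest at 1.59% and the other protein-coding genes highest at 16.6%.

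Of the 44 genes in the 5 families, 14 had no listed window, 13 had some but fewer than 20 reads over both MeDIP libraries (window counts divided by 4, since a read is counted in about 4 windows), and 17 had at least 20. The 14 were Klrb1-ps1; Clec2d, which encodes the Clr-b ligand; the myeloid inhibitory receptor gene Clec12a; Klrk1, Klrc3, Klri1 and Klri2; and Klra1, Klra5, Klra6, Klra9, Klra10, Klra11-ps and Klra14-ps. Among the 39 protein-coding members 11 had none (28.2%), against 11.5% of 9571 protein-coding loci in the range of the table. The nearest listed window lay 16714 bp from the start of Klrk1 and 25482 bp from that of Klri1, but 2265 bp from Clec2d and 1594 bp from Clec12a. For these genes the table gives no reads, which says nothing of their methylation.

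Pull-down over the complex was clear in both genotypes and was greater in windows with more CpG. MeDIP over input, both scaled by depth, was 4.16 in WT (interval 3.83 to 4.52) and 4.18 in PLZFon (3.8 to 4.61) in windows with 1 CpG. In windows with 5 CpG the values were 7.95 (6.77 to 9.35) and 7.69 (6.39 to 9.28), and with 7 or more 10.1 (8.1 to 12.8) and 8.88 (6.9 to 11.5). WT rose at every step, and PLZFon up to 6 CpG (10.2, 7.53 to 13.8). Over all listed windows the last class stood at 7.36 in WT and 6.72 in PLZFon. In each of the 7 CpG classes the interval of the complex lay above that of all listed windows, in both genotypes. In WT gene loci alone, the intervals at 1 to 4 CpG took in the value of all listed windows. They were 3.51 to 4.43 against 3.68 at 1 CpG and 4.62 to 6.88 against 5.48 at 4. Between genes the WT intervals lay above it (3.9 to 4.92 and 6.27 to 8.47). In PLZFon the same held at 2 to 4 CpG. At 1 CpG it was the reverse, with 3.75 to 4.95 in gene loci and 3.55 to 4.66 between genes, against 3.57. Listing depends on MeDIP reads, so the selection raises all of these values. The library titled PLZFon MeDIP was enriched by CpG like the WT library, although its antibody field says none.

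**Figure D3:**
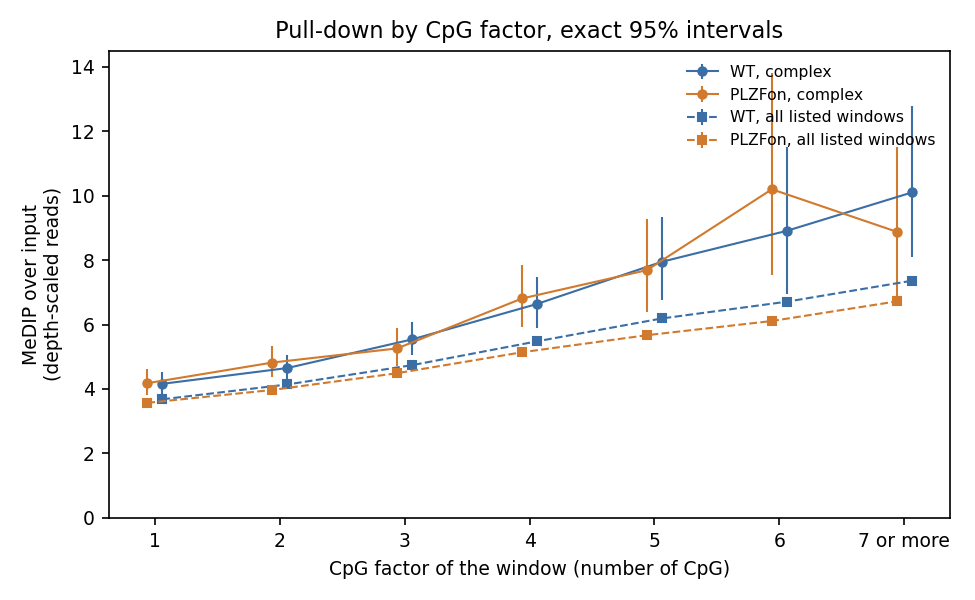
MeDIP over input (depth-scaled reads) against the CpG factor of the window for the complex (solid lines) and all listed windows (dashed lines), in WT (blue) and PLZFon (orange), with exact 95% intervals. The ratio is higher in the classes with more CpG, from 4.16 to 10.1 over the complex in WT and from 3.68 to 7.36 over all listed windows.

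The 5 windows with the most MeDIP reads lay between genes. Intergenic windows made up 49.6% of the listed windows and 59.8% of the MeDIP window counts, on 42.4% of the segment. MeDIP over input was 5.87 (5.55 to 6.2) in WT and 5.74 (5.38 to 6.13) in PLZFon between genes, against 4.79 (4.38 to 5.24) and 4.98 (4.49 to 5.52) over the 5 families together. Intergenic windows also held more CpG, 2.66 on average (SD 1.67) against 2.3 (SD 1.37). Within classes of CpG factor, 1 to 4 singly and 5 or more together, the intergenic value was the higher in 5 of 5 classes in WT and 4 of 5 in PLZFon, and no interval lay clear of that of the gene loci. The last class was not matched, with a mean factor of 6.03 between genes and 5.75 in gene loci.

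Of these 5, 2 adjacent ones lay between Clec2i and the RNA gene Gm38905. That at chr6:128911301-128911400 held 74 PLZFon and 92 WT MeDIP reads and 19 and 22 input reads, with 5 CpG. Its neighbour at 128911401 held 73 and 92 MeDIP and 23 and 16 input reads, with 9 CpG. Next came 3 windows in the 44.9 kb between Klrh1 and Klra17, of which that at chr6:129808001-129808100 held 57 and 90 reads against 17 and 18 in the inputs. The gap with the most listed windows, 118, was that between Klra5 and Gm40404, where 38.7% of windows were listed (40.3% between Clec2i and Gm38905) and PLZFon and WT held 1742 and 2537 window counts, a ratio of 0.978 (0.863 to 1.11). The window with the highest CpG factor, 11, lay at chr6:128921401-128921500 between genes and held 23 PLZFon and 41 WT MeDIP reads with 8 and 17 input reads. CpG-dense windows were listed in the gaps, while the CpG-dense start of Gabarapl1 printed above was not.

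The comparison between genotypes asked whether PLZFon and WT cells differ in methylation of the complex. Over all 1269 windows PLZFon had 3422 and WT 5123 MeDIP reads, a depth-scaled ratio of 0.951 (interval 0.911 to 0.994). The inputs had 3017 and 3818 reads, a ratio of 0.952 (0.907 to 0.999), and the MeDIP ratio divided by that of the input was 0.999. Over all listed windows the MeDIP ratio was 0.964 and the input ratio 1.01. With TMM factors the complex stood at 0.986 (0.944 to 1.03), so its interval then included equality. In 18 of 19 bins of 100 kb the interval included equality. The exception, the bin from 500 to 600 kb, had 0.862 (0.743 to 0.999), and 0.893 (0.77 to 1.04) with TMM factors. This bin contains the listed windows of Clec2e and the gap between Klrb1f and Clec2e, both described below. The bin, the gene and the gap are therefore not separate observations.

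No family differed between the libraries beyond counting error. The ratio was 1.09 (0.89 to 1.34) over the Klrb1 family, 0.93 (0.794 to 1.09) over the Clec2 family with Cd69, 0.925 (0.68 to 1.25) over the myeloid lectins, 1.14 (0.748 to 1.72) over the CD94/NKG2 group and 0.99 (0.821 to 1.19) over the Klra family. Every one of these 5 intervals included equality, and so did those of the inputs of the same families, which ranged from 0.879 to 1.02. Between genes MeDIP stood at 0.936 (0.885 to 0.991) and input at 0.956 (0.896 to 1.02). With TMM factors the intergenic value was 0.97 (0.917 to 1.03), with scaling by listed windows 0.971 (0.918 to 1.03), with scaling within CpG classes 0.977 (0.923 to 1.03) and with windows of at least 20 MeDIP reads 0.945 (0.888 to 1.01), so these intervals included equality. The widest interval, that of the CD94/NKG2 group, rested on 44 PLZFon and 55 WT reads and would not show a difference smaller than its bounds.

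Gene by gene, 15 of the 17 family members with at least 20 reads had an interval that included equality, and their median log2 ratio was -0.03. The median over all 14217 gene loci of the table with at least 20 reads was -0.06. A gene was called where the libraries differed 2-fold or more and the interval left out equality, and by this rule 1 was higher (Klrb1b) and 1 lower (Clec2e). Over all those loci 0.176% were higher and 0.464% lower, 0.64% in all. Among all 35 genes of the segment with at least 20 MeDIP reads no others passed, which made 2.86% higher and 2.86% lower. On the inputs 0 of the 40 genes of the segment with at least 20 input reads passed, where 0.176% of all loci were higher and 0.156% lower, 0.332% in all.

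**Figure D4:**
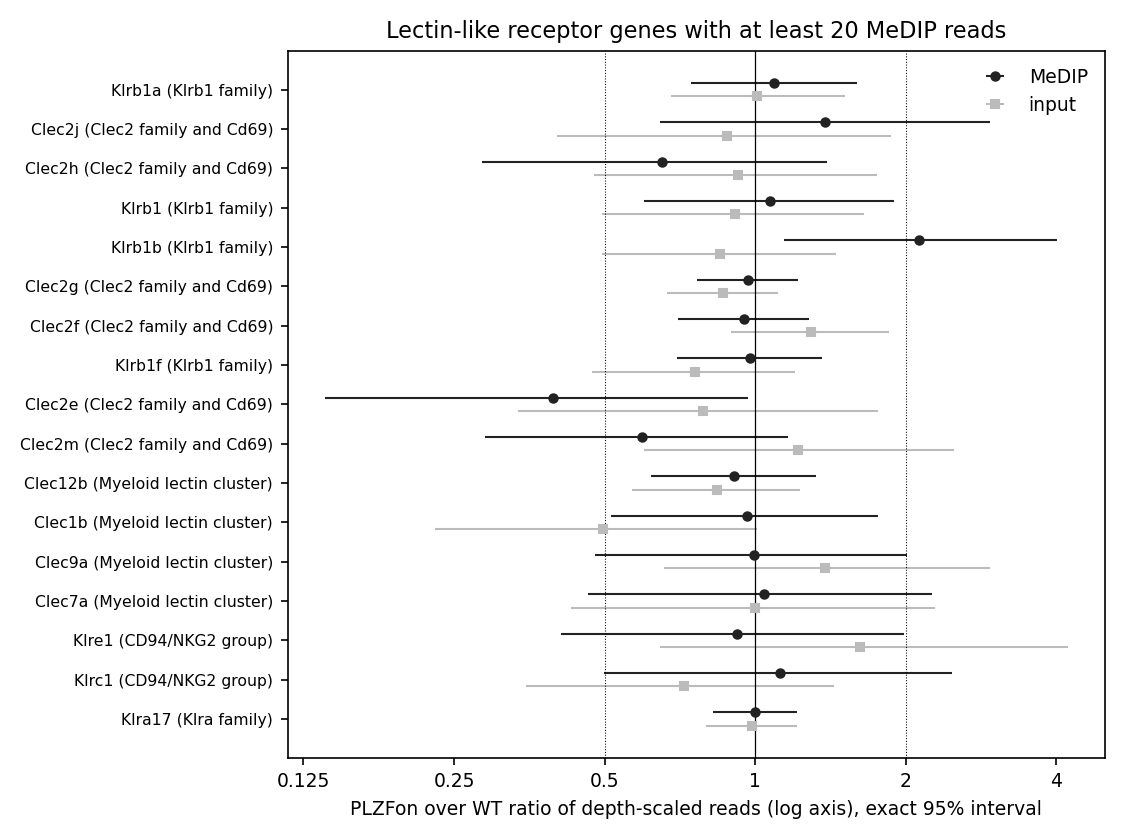
PLZFon over WT ratio of depth-scaled MeDIP (black) and input (grey) reads for the 17 family genes with at least 20 MeDIP reads, on a log axis with exact 95% intervals and dotted lines at 2-fold. Klrb1b, at 2.12, and Clec2e, at 0.394, are the genes whose MeDIP interval excludes 1.

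Klrb1b encodes an inhibitory NKR-P1 receptor whose ligand is Clr-b. It held 28.2 PLZFon and 19 WT MeDIP reads over 13 listed windows, with 25.8 and 36.5 input reads. The ratio was 2.12 (1.14 to 4.01), and that of the inputs 0.85 (0.493 to 1.45). MeDIP over input was 2.09 in WT. The difference was uneven along the gene. The windows with the most PLZFon reads lay in a run of 6 inside the gene. At chr6:128820801-128820900 there were 11 PLZFon and 2 WT reads, in the next window 12 and 4, in the third 18 and 8 and in the fourth 13 and 7, against 9 and 9 and 8 and 7 in the last 2. The inputs of these 6 windows held 7 to 9 PLZFon and 10 to 13 WT reads. In the authors' deposited table the first of these windows has the lowest p of the segment, 0.00184, with a log2 fold change of 2.93 and an adjusted p of 0.995, and 0 windows of the segment have an adjusted p below 0.05, against 0.0144% of all listed windows.

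A run of 3 windows from 128823601 held 6 PLZFon and 4 to 5 WT reads each (ratios of 1.71 to 2.14). The run of 3 from 128824101, nearer the start of Klrb1b, held 5 to 6 PLZFon and 6 to 8 WT reads, at or near equality after scaling (ratios of 1.07 to 1.19). A single window 335 bp upstream of the start held 7 and 3 reads (3.32, 0.758 to 19.9). The printed promoter of Klrb1b lies between those and was not listed. With windows of at least 20 MeDIP reads only, the ratio of Klrb1b was 2.94, with an interval (0.761 to 14.1) that included equality, and with the reads of 5000 bp on each side it was 1.86 (1.1 to 3.15).

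Clec2e encodes a Clr protein of the same ligand family. It held 6.5 PLZFon and 23.5 WT MeDIP reads over 6 windows, with 11.2 and 17.2 input reads, and stood at 0.394 (0.138 to 0.967) for MeDIP and 0.786 (0.336 to 1.76) for the inputs. All 6 windows lay at the far end of the gene, the nearest of them 8853 bp from the start, and 4 of them outside it, in the flank. The windows from 129091101 to 129091500 held 4, 5, 7 and 6 PLZFon reads against 18, 21, 22 and 15 WT reads, and the 2 inside the gene held 2 and 9 each. After scaling to depth PLZFon lay below WT in all 6 (ratios of 0.316 to 0.57). The 6 form 2 runs of adjacent windows that share reads, so they are closer to 2 observations than to 6. Those inside the gene held 11 MeDIP reads each over both libraries, near the lowest total that is listed. They are listed through their WT reads, so their low ratios depend in part on that selection. The call ended with TMM factors (0.408, interval 0.143 to 1), with windows of at least 20 MeDIP reads only (0.412, 0.128 to 1.1), with the gene taken without flanks (0.316, 0.00657 to 2.99) and with flanks of 5000 bp (0.663, 0.36 to 1.18).

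**Figure D5:**
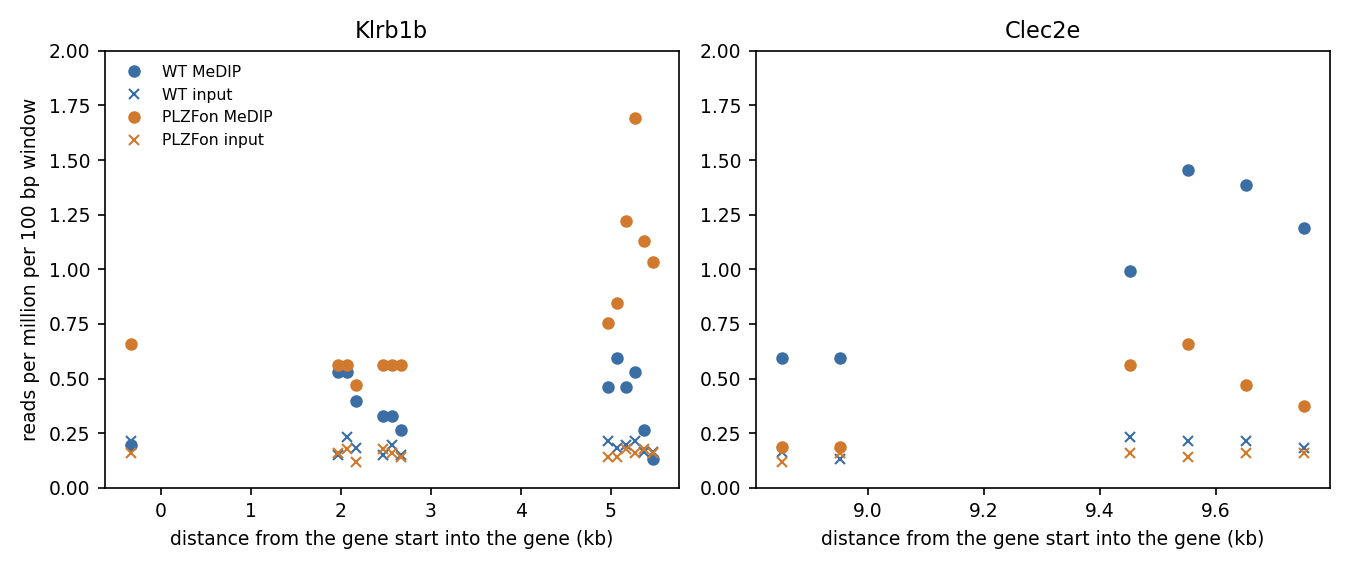
Reads scaled to library depth (RPM) in each listed window of Klrb1b (left) and Clec2e (right) against the distance from the gene start into the gene, for MeDIP (circles) and input (crosses) in WT (blue) and PLZFon (orange). PLZFon circles stand above WT in the run deep in Klrb1b and below WT in all 6 windows of Clec2e, while the input crosses lie together near the bottom. Adjacent windows share reads, so the windows of a run are not separate observations.

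The intervals of the other Klrb1 genes with listed windows included equality. Klrb1a had 51.2 reads in PLZFon and 66.8 in WT (ratio 1.09, 0.745 to 1.6). Klrb1f, which encodes a stimulatory NKR-P1 receptor, held the most reads of the family, 63 and 91.8, at a ratio of 0.978 (0.698 to 1.36). Of these reads, 58.2 and 87 lay in 1 run of 10 listed windows at chr6:129059601-129060600. Most of that run is flank, since the gene ends at base 129059724. Without flanks the ratio of Klrb1f was 1.42 (0.404 to 5.02). Klrb1 stood at 1.07 (0.599 to 1.89). Klrb1c, the NK1.1 gene, held the fewest, 3.75 and 12.2 reads with 11.2 and 17 in the inputs, too few for the rule, with a ratio of 0.436 (0.0975 to 1.47). The MeDIP reads of Klrb1c were 2.89 times the input in WT. Those of the Klrb1f locus, mostly from the run at its end, were 7.17 times the input.

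Of the Clec2 family, Clec2g held the most reads, 128 PLZFon and 188 WT, with 108 and 151 in the inputs, a ratio of 0.967 (0.766 to 1.22). Clec2f had 0.95 (0.7 to 1.28). Clec2m, which after Clec2e differed most among the members with at least 20 reads, had 13.2 and 31.8 reads and a ratio of 0.594 (0.288 to 1.16), where the inputs stood at 1.22 (0.598 to 2.5). Clec2i, with the fewest, had 6.75 and 3.25 reads, or 2.96 (0.686 to 16.5). Cd69, the early activation marker of lymphocytes, had 4 listed windows and 10.2 and 8.5 reads, or 1.72 (0.624 to 4.86), while its inputs stood at 0.567 (0.176 to 1.61). Over these loci as wholes, Clec2e apart, the libraries differed by no more than counting error allows where sums were divided by 4. With sums divided by 2 the intervals of Clec2m (0.363 to 0.949) and Clec2i (1.08 to 9.04) left out equality.

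Among the myeloid lectins, Clec12b held the most reads, 48.5 PLZFon and 76.2 WT, or 0.906 (0.618 to 1.32) after scaling. Its span includes Clec1b and Clec9a, so these share windows with it. Clec1b, the platelet receptor CLEC-2, had 0.961 (0.515 to 1.76), although its input ratio was low at 0.497 (0.229 to 1.01). Clec1a had the fewest, 6.25 and 7.25 reads. In the CD94/NKG2 group 2 genes had at least 20 reads: Klrc1, which encodes NKG2A, had 13 PLZFon and 16.5 WT, while Klre1 had 12.2 and 19, and the ratios were 1.12 (0.499 to 2.47) and 0.918 (0.409 to 1.98). Klrd1, the gene of CD94, had 3 and 2.25 reads. A 2-fold loss in PLZFon lay within the intervals of both Klrc1 and Klre1.

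Klra17, which encodes Ly49Q, a receptor of plasmacytoid dendritic cells and other myeloid cells, was the Klra gene with enough reads. It held 184 PLZFon and 262 WT MeDIP reads over 68 windows, with 166 and 203 in the inputs. The ratio was 1 (0.823 to 1.21), with 0.984 (0.797 to 1.21) in the inputs, and MeDIP over input was 5.16 in WT. Of the other Klra genes, Klra4, Klra8, Klra7, Klra3 and Klra13-ps had 1 to 3 listed windows each. Klra8, the gene of the activating receptor Ly49H, held 4.75 and 5.75 reads, and those with the fewest were Klra13-ps, with 1 and 1.5, and Klra3, with 0.75 and 1.75. Their levels between the libraries cannot be compared at this depth.

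Window by window, 638 windows of the complex had at least 20 MeDIP reads. By the 2-fold rule 3 were higher (0.47%) and 24 lower (3.76%) in PLZFon, against 1.13% higher and 2.17% lower, 3.3% in all, over all listed windows. With TMM factors the split was 14 higher and 20 lower, a setting for which the share over all listed windows was not taken. The inputs, by the same rule, gave 15 higher and 18 lower of 689 windows (2.18% and 2.61%), where 1.92% and 1.43% of all windows passed, 3.36% in all. The 27 windows lay in runs of adjacent listed windows, 3 for the higher and 13 for the lower, so they are fewer observations than windows. Of the 27, 12 were intergenic. In the lectin families the lower windows were 2 in Clec2e, 2 in Clec2m, 2 in Klra17 and 1 shared by Clec12b and Clec9a, and 1 higher window was in Klrb1b. Gabarapl1 had 2 adjacent lower windows inside the gene, far from the printed promoter, with 8 PLZFon reads against 31 and 12 against 39 in WT.

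Among the windows with at least 20 MeDIP reads, the 3 highest ratios were at chr6:128625401-128625500, 2516 bp from Klrb1a, with 15 PLZFon and 6 WT reads (3.56, interval 1.31 to 11.2), at the third Klrb1b window (3.2, 1.33 to 8.52) and in A2ml1 at chr6:128581001-128581100, with 13 and 7 reads (2.64, 0.981 to 7.83), which the fourth Klrb1b window equals. The lowest among these windows were in A2ml1 at chr6:128568701-128568800, with 3 and 22 reads (0.194, 0.0372 to 0.646), and in 2 adjacent windows of a run of 4 called windows from 128631001, with 8116 bp to the nearest gene, Klrb1a. These held 4 and 23 (0.248, 0.0623 to 0.725) and 5 and 24 reads (0.297, 0.0884 to 0.793). The interval of the higher A2ml1 window included equality, so the third window called higher was another, at chr6:129337101-129337200 between genes, with 16 and 9 reads (2.53, 1.05 to 6.5). In the inputs the A2ml1 window with the low ratio held 11 PLZFon and 5 WT reads, and the 2 windows of the run 9 and 9 and 7 and 11. A2ml1 as a whole, a gene of the macroglobulin family, stood at 0.973 (0.824 to 1.15).

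Partners and other receptors of NK cells encoded elsewhere in the range of the table were set beside the complex. Klrg1, an inhibitory lectin gene elsewhere on chromosome 6, had 55 PLZFon and 94.2 WT reads and a ratio of 0.831 (0.585 to 1.17). Cd244a (1.08, 0.729 to 1.59), Cd160 (1.04, 0.787 to 1.37), Slamf6 (1.02, 0.618 to 1.68), Slamf7 (1.05, 0.775 to 1.41), Cd48 (0.966, 0.552 to 1.66) and Fcgr3 (1.19, 0.944 to 1.49) also had intervals that included equality, and 0 of these 7 genes passed the rule. The adaptor gene Tyrobp, whose protein DAP12 carries the signal of activating Ly49 receptors, had 1.25 and 8 reads, Ncr1 had 5 and 9.5, and Hcst (DAP10) and Nkg7 had no listed window.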

How the data were processed

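Thymic NKT cells of WT and PLZFon mice gave 4 libraries, whose DNA was sonicated to a median of 180 to 230 bp, per the labels' protocols. BWA, edgeR and mm10 are named without versions in the submitters' processing notes, and sorted, unique-filtered alignments per the file headers. The deposited table gives raw counts per 100 bp window and library, the authors' RPKM, the authors' CpG factor and relative methylation score, and the authors' edgeR log2 fold changes and p-values. It has 1048576 lines with its header and ends within chromosome 7. Regions beyond it were not analysed here.

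Library totals came from counts over RPKM. The scaled squared difference between input windows levelled off at a distance of 4 windows (WT input 0.278 at 1, 1.193 at 4 and 1.291 at 8), so sums of counts over loci were divided by 4 to give reads. In the MeDIP libraries it still rose from 4 to 6 windows (WT 4.439 and 5.180, PLZFon 3.158 and 3.613). Their sums were divided by 4 too. Reads that touch fewer than 4 listed windows count for less than 1. Ratios are of library shares, PLZFon over WT. A window or locus passed with 20 or more reads, a difference of 2-fold or more and an interval without equality. The rule and intervals were tried on simulated single windows with counting error only and 4-fold changes. Sums over loci, reads shared by neighbouring windows and spread between libraries were not simulated. Named genes were, per family, those with no listed window, those with the most and fewest reads, the 2 ratios farthest from equality at 20 or more reads, and those that passed; Cd69, Clec2f, Klrb1 and the Klra genes with few windows were added after their values were seen. The members, lists and rules were chosen with earlier results of these data known. Python 3.11.15, scipy 1.17.1, R 4.3.3 and edgeR 4.0.16 (TMM factors) were used. Promoter sequences are from RefSeq.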

Additional observations from a re-analysis of the deposited data

How the results depend on the processing

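No paired analysis was possible because each group has 1 library, and for the same reason no library could be left out. Of 350 values recomputed with another scaling, filter, flank or rule, 317 stayed within the interval of the value reported (1.5 times for counts, 1 SD over windows for the mean CpG factor), and none that was called changed sign. No window of the complex had at least 60 input reads, so their removal changed nothing. Dividing sums by 2, or not at all, keeps each ratio and only narrows its interval. Values under these settings stay by construction and are counted among the 317. The ratio of the complex divided by that of its input was 0.999. Clec1b so divided stood at 1.94. Klrb1f without flanks stood at 1.42, and MeDIP over input in WT of the Klrb1 family without flanks at 3.72. Genes past the rule numbered 1 (Klrb1b) with TMM factors, with scaling by listed windows and with a minimum of 40 reads, and 0 on the inputs. Windows past it numbered 7, all lower, with a minimum of 40 reads, and 40 (13 higher) with a minimum of 10. Shares over all listed windows and gene loci were not taken with TMM factors, scaling by listed windows or these minimums. The counts under these settings therefore have no background, and no direction is read from them.

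With windows of at least 20 MeDIP reads, MeDIP over input rose and the listed share fell in each part, as that filter must do. In WT and PLZFon it became 6.62 and 7.91 over the Klrb1 family, 8.04 and 7.33 over the Clec2 family, 6.19 and 7.78 over the myeloid lectins, 9.93 and 6.32 over the CD94/NKG2 group, 6.83 and 7.17 over the Klra family, 7.2 and 6.25 over other protein-coding genes, 6.32 and 6.9 over predicted and RNA genes, and 7.36 and 7.29 between genes. The shares, in the same order, became 3.1%, 3.4%, 0.645%, 0.19%, 1.56%, 6.38%, 2.2% and 4.7%. The values of the CD94/NKG2 group then rested on few windows, with intervals of 3.55 to 32.2 in WT and 2.21 to 18.9 in PLZFon. Its PLZFon over WT ratio became 0.999 (0.398 to 2.41), the same as that of Klre1. Depth limits most single genes: of the 44 family members 27 had fewer than 20 reads or none.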

Other observations

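Among runs of adjacent listed windows with many reads, that at chr6:128689301-128690300, between Clec2h and Klrb1, was picked because its interval left out equality. That interval is therefore a result of the choice. The run held 201 PLZFon and 448 WT window counts over 10 windows. Its ratio was 0.639 (interval 0.449 to 0.899), with an input ratio of 0.993, and MeDIP over input was 11.7 in WT and 7.5 in PLZFon. The gap of 30.1 kb between Klrb1f and Clec2e held 505 and 918 window counts, a ratio of 0.783 (0.625 to 0.978) where the input ratio was 1.05. With TMM factors, tried after the data had been seen, the gap stood at 0.812 (0.648 to 1.01), an interval that included equality, and the run at 0.662 (0.465 to 0.932). The gap holds 4 of the windows called lower, 3 of them adjacent (from 129067701, with 12 PLZFon reads against 43 and 46 WT reads in the first 2 windows). These windows hold part of the reads that set the ratio of the gap, so they are not separate support for it. The run and the gap were noticed in these libraries and have no replicate.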
